A study of Mus musculus with 6 samples.

Results

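The data describe 10 genes that encode subunits of AP-1 or bZIP proteins that pair with it: Fos, Fosb, Fosl1, Fosl2, Jun, Junb, Jund, Atf3, Batf and Maff. They were taken by symbol from the 43472 gene symbols counted in each library, and all 10 were found. RNA came from whole intervertebral discs (IVDs, levels T8 to L5) of mice at postnatal day 20 (P20), and poly(A) RNA was sequenced in 6 libraries. The 3 mutant libraries were Col2Cre; Adgrg6f/f, in which Cre recombinase driven by type II collagen regulatory sequence removes Adgrg6, an adhesion G-protein-coupled receptor counted here under its older symbol Gpr126, during embryonic development. By the study's account this Cre recombines in the whole disc and also in periosteum and trabecular bone of the vertebrae, so the deletion is not limited to cartilage. The 3 control libraries have the genotype label wild type, although their titles carry the name Col2Cre, and the study describes its controls as Cre-negative littermates. Whether they carry the floxed allele is not stated. Both groups carry the strain label C57B6/J, no treatment or sex is given, and each library pooled the discs of 2 to 3 mice, so the p-values below measure the spread between pools.

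AP-1 is a dimer of basic leucine zipper (bZIP) proteins that binds short DNA elements near the genes it regulates. Jun proteins can pair with each other or with Fos proteins, whereas Fos proteins need a Jun partner. Fos, Fosb, Jun, Junb and Atf3 are immediate early genes: growth factors, cytokines, mechanical load and cell stress raise their RNA within minutes without new protein synthesis, and the RNA decays quickly. In cartilage and disc, AP-1 is known as a regulator of matrix metalloproteinases and inflammatory genes.

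Between 9061491 and 12017008 reads per library were assigned to genes, 40.4 to 44.2% of those counted. Col2a1 and Acan, which encode the main cartilage collagen and proteoglycan, were at 62708 CPM (counts on a gene relative to the library's total, scaled between libraries) or more and at 3565 CPM or more in every library, so the cartilage label held. Gpr126 was at 124, 108 and 94.3 CPM in controls 1, 2 and 3 and at 138, 124 and 106 CPM in mutants 1, 2 and 3. Its log2 fold change was 0.17 (SE 0.18, adjusted p = 0.849), and because the count covers the whole gene and not the deleted part, it does not check the deletion. Libraries also differed in markers of other cell types. The 10 skeletal muscle markers summed to 4537 CPM in control 1 and to 207 to 300 CPM in the other 5 libraries. The 10 neuron and glia markers, 1 of them at 0 in every library, summed to 335, 1795 and 712 CPM in controls 1, 2 and 3 and to 3724, 2643 and 1087 CPM in the mutants. The 8 red blood cell precursor markers with a row in the tables summed to 40.1 to 344 CPM in controls and 215 to 452 CPM in mutants, and the 9 osteoblast markers to 5373 to 14744 CPM and 13508 to 21890 CPM. Most of that last sum was Col1a1, a collagen gene that the fibrous annulus also expresses (3879 to 12862 CPM in controls and 11537 to 20231 CPM in mutants), so it is no measure of bone alone. The part of these markers in the results below was not tested. In whole discs, fewer cells of a type and less RNA per cell cannot be told apart.

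To show the control regions of the genes with the largest differences, 200 bases around the start site (150 before and 50 after) are printed for Fos, Fosb, Junb and Jun, from RefSeq on GRCm38.p6, 5′ to 3′ on the gene's own strand. Capitals mark TGACG, the core bound by CREB and ATF factors, and, for Jun, TGACATCA, a variant AP-1 and ATF element.
Fos (chr12:85473740-85473939, plus strand): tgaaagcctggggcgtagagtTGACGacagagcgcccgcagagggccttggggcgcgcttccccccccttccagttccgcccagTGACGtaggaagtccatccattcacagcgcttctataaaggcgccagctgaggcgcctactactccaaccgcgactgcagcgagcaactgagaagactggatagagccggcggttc
Fosb (chr7:19309996-19310195, minus strand): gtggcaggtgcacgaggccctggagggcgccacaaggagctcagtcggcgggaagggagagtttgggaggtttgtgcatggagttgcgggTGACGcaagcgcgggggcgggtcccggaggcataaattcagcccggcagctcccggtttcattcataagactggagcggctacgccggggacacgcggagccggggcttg
Junb (chr8:84978699-84978898, minus strand): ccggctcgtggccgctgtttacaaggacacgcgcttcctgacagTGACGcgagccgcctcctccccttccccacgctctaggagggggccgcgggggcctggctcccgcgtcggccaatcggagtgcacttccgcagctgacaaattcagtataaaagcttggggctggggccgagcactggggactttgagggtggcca
Jun (chr4:95052173-95052372, minus strand): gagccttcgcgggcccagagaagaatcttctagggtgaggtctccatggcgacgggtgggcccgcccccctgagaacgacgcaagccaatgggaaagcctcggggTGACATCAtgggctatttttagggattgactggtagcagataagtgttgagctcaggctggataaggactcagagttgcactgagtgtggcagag

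Fos, Fosb and Junb each hold TGACG upstream of the start. In Fos it begins at −129 and at −66, in Fosb at −60 and in Junb at −106, where −1 is the base before the start. Over the whole RefSeq window (250 bases before the start to 50 after) and on both strands, 6 of the 9 members with an entry held TGACG (Fos, Fosb, Junb, Atf3, Batf and Maff), as did 23.05% of the 27025 genes with an entry. The longer palindrome TGACGTCA, which contains TGACG, was found in Maff among the members and in 2.03% of genes. TGACATCA, searched after these sequences had been read, was found in Jun at −45 and in Maff, and in 4.18% of genes. The classical AP-1 element TGANTCA was in none of the 9 members and in 8.97% of genes. The Jund window ended at chr8:70697788, before the gene start used below (70698949), so that start was not searched. Maff was searched at several start sites. A match is a description of letters and not a binding site.

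Among the members, 6 of 10 were higher in mutants at an unadjusted p under 0.05: Fosb, Fos, Junb, Jun, Atf3 and Fosl2, in order of fold change. None was lower. Of all 16152 genes tested, 7.21% passed this threshold in either direction and 2.89% passed it and were higher in mutants, and 4.32% were lower. With a log2 fold change above 1 also required, a cut that the study's methods add, 4 of 10 members (Fosb, Fos, Junb and Jun) and 0.632% of all genes passed as higher. The median log2 fold change of the 10 members was 0.80, against −0.013 over all genes tested. In edgeR 0 of 10 members had an adjusted p under 0.05, a threshold that 0.00619% of all genes (1 gene) passed, so these are differences before correction. DESeq2 gave 1 member an adjusted p under 0.05 (Jun, adjusted p = 0.0200), where 58 of 16152 genes passed. With limma-voom 0 members and 0 genes passed. Without the filter on low counts edgeR gave 4 (Fos, Fosb, Jun and Junb), where 245 of 26418 genes passed. The mutant libraries lay above all controls without overlap for 3 of 10 members (Fosl2, Jun and Atf3), and for 5.45% of all genes.

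**Figure D1:**
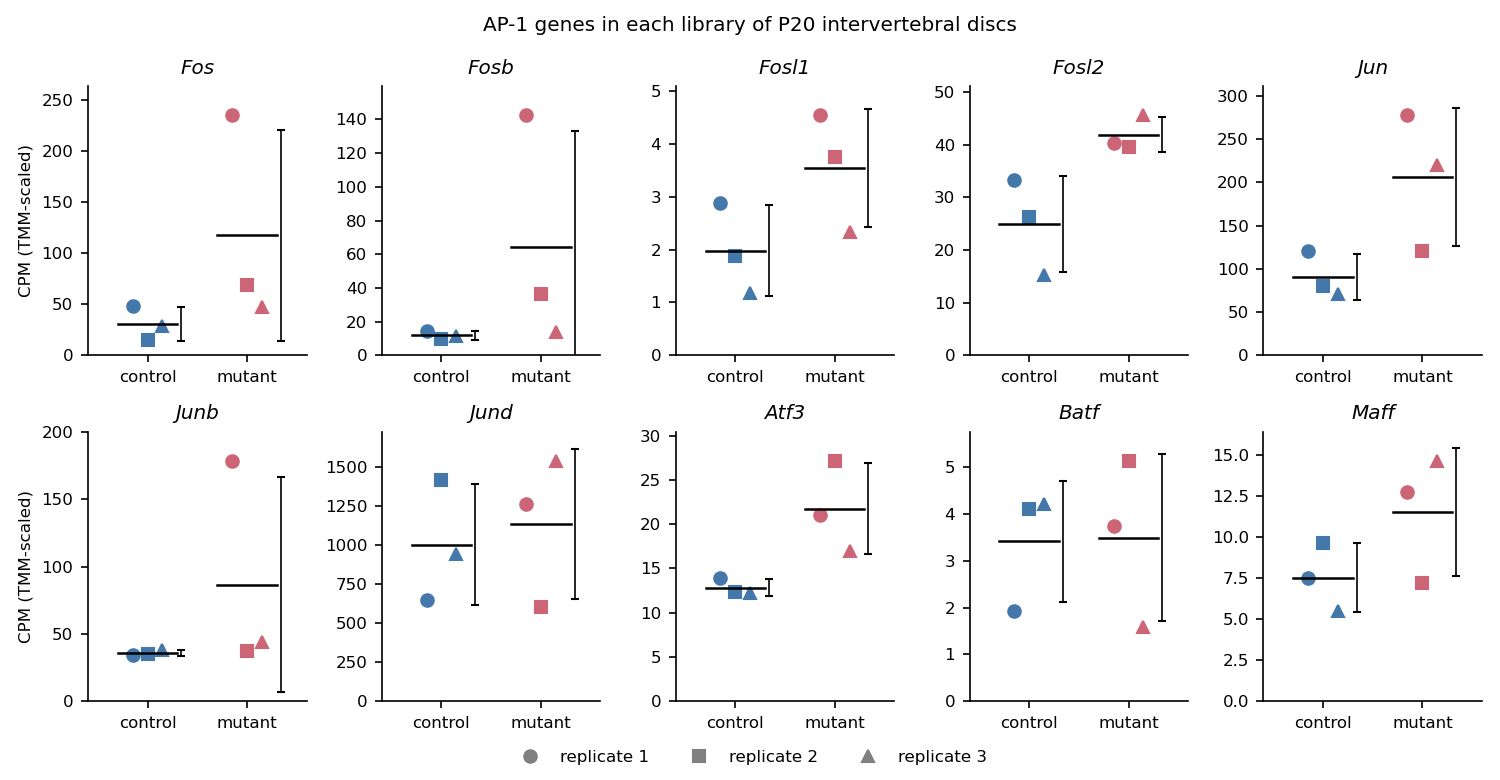
CPM (scaled by TMM) of the 10 AP-1 genes, each panel with its own linear axis from 0; points are libraries, horizontal lines group means and bars 1 SD (n = 3), cut at 0 where the SD is larger than the mean. Mutant replicate 1 (circle) stands far above the other mutants for Fos, Fosb and Junb, whereas for Fosl2, Jun and Atf3 the 3 mutants lie above the 3 controls.

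The Fos proteins supply one arm of the dimer. Fos, the founding member and an early reporter of cell activation (chr12:85473890-85477273, plus strand, GRCm38; gene positions here and below are from GENCODE M21), was at 48.1, 14.8 and 28.5 CPM in controls 1, 2 and 3 and at 236, 69.0 and 47.8 CPM in mutants 1, 2 and 3. Mutant 1 stood apart, and mutant 3 lay just under control 1, so that the groups overlapped by this pair. The log2 fold change was 1.95 (SE 0.58, 95% interval 0.66 to 3.24, adjusted p = 0.676). Without mutant 1 it was 0.97, which lowers the fold from 3.86 to 1.96 and still had an unadjusted p under 0.05.

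Fosb, whose protein and its truncated form act in sustained responses (chr7:19302696-19310051, minus strand), had the largest fold change of the 10. It was at 14.3, 9.55 and 11.4 CPM in controls and at 143, 36.3 and 14.1 CPM in mutants. Controls were close to each other, mutant 3 lay within their range, and mutant 1 was 3.93 times the next mutant. Its log2 fold change was 2.45 (SE 0.66, 95% interval 0.97 to 3.92, adjusted p = 0.629), or 1.14 without mutant 1, a fold of 2.20 in place of 5.45.

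Fosl2 encodes FRA-2, a Fos protein without a strong activation domain that is known in chondrocytes and bone (chr5:32135801-32157842, plus strand). It was at 33.4, 26.3 and 15.2 CPM in controls and at 40.4, 39.7 and 45.7 CPM in mutants. The mutants were within a narrow band above every control, and mutant 1 did not stand apart. The difference was 0.75 on the log2 scale (SE 0.26, 95% interval 0.18 to 1.32, adjusted p = 0.676). With 1 library left out it ranged from 0.50 (without control 3) to 1.04 (without control 1).

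Fosl1, which encodes the related FRA-1 (chr19:5447547-5455946, plus strand), was at 2.89, 1.89 and 1.17 CPM in controls and at 4.55, 3.75 and 2.34 CPM in mutants. It was the rarest member by length, with 167 reads over the 6 libraries, and the groups overlapped. Its log2 fold change of 0.84 (SE 0.53, 95% interval −0.34 to 2.03, adjusted p = 0.772) did not pass the threshold. Of its 2033 exonic bases, 1163 overlap Ccdc85b on the opposite strand, which had 3473 reads, so its counts are uncertain.

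The Jun proteins can act with or without a Fos partner. Jun, the strongest activator of the family (chr4:95049034-95052222, minus strand), was at 120.19, 80.2 and 71.0 CPM in controls and at 278, 120.21 and 220 CPM in mutants. Mutants 1 and 3 were well above all controls, whereas mutant 2 and control 1 were nearly equal, and the absence of overlap rests on that pair. Jun had the smallest p-value of the members (log2 fold change 1.19, SE 0.31, 95% interval 0.49 to 1.88, adjusted p = 0.627). Leaving out each library in turn gave 0.94 to 1.47.

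Junb often acts as a weaker activator than Jun or as its antagonist (chr8:84974484-84978718, minus strand). It was at 34.5, 35.2 and 38.2 CPM in controls and at 179, 37.1 and 44.2 CPM in mutants. The controls varied little, mutant 2 lay among them, and mutant 1 was 4.04 times the next library of its group. The log2 fold change was 1.27 (SE 0.50, 95% interval 0.15 to 2.38, adjusted p = 0.676), and without mutant 1 it was 0.21, a fold of 1.16, and the threshold was missed. It was also missed without control 2 (1.24) and without control 3 (1.31).

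Jund, which unlike the other Jun genes is expressed steadily in resting cells (chr8:70698949-70700616, plus strand), was at 646, 1416 and 941 CPM in controls and at 1264, 603 and 1538 CPM in mutants. The ranges of both groups overlapped over most of their width. The log2 fold change was 0.18 (SE 0.38, 95% interval −0.66 to 1.02, adjusted p = 0.936), and its sign turned without control 1 (−0.034) or without mutant 3 (−0.10). All 877 exonic bases of the antisense gene Gm11175 lie within its 1668 bases, and that gene had 35173 reads beside 63808 for Jund. Adding the antisense counts to Jund and, for Junos (232 bases of overlap), to Jun changed no call among the members. Gm11175 followed Jund across libraries (325, 825 and 497 CPM in controls, and 738, 281 and 895 CPM in mutants). By these positions it has no exonic base outside Jund, so only strand could assign reads to it apart from Jund. The strand setting of the counting is not stated, so whether the Gm11175 reads are antisense RNA is uncertain.

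The remaining members are bZIP partners or relatives of AP-1. Atf3, a stress-response factor that can repress as a homodimer (chr1:191170296-191218039, minus strand), was at 13.9, 12.3 and 12.3 CPM in controls and at 21.1, 27.2 and 17.0 CPM in mutants. Controls were tight, all mutants were higher, and the highest was mutant 2 and not mutant 1. Its log2 fold change was 0.76 (SE 0.22, 95% interval 0.27 to 1.26, adjusted p = 0.676) and lay between 0.58 and 0.92 when each library was left out.

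Maff, a small Maf protein without an activation domain (chr15:79346621-79359076, plus strand), was at 7.49, 9.66 and 5.47 CPM in controls and at 12.7, 7.18 and 14.7 CPM in mutants. Mutant 2 fell among the controls. Its log2 fold change of 0.61 (SE 0.34, 95% interval −0.14 to 1.37, adjusted p = 0.732) missed the threshold. Maff passed it when mutant 2 was left out (0.88), whereas its log2 fold change was 0.40 without mutant 3.

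Batf, an AP-1 factor best known in lymphocytes (chr12:85686669-85709087, plus strand), was at 1.93, 4.11 and 4.22 CPM in controls and at 3.76, 5.14 and 1.59 CPM in mutants. The groups overlapped fully, and the log2 fold change was 0.035 (SE 0.54, 95% interval −1.17 to 1.24, adjusted p = 0.992). Its sign turned without control 1 (−0.22) or mutant 2 (−0.34). The 14 lymphocyte markers summed to 9.20 to 11.7 CPM in controls and 5.84 to 8.99 CPM in mutants, and 9 of them were under 1 CPM in every library.

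**Figure D2:**
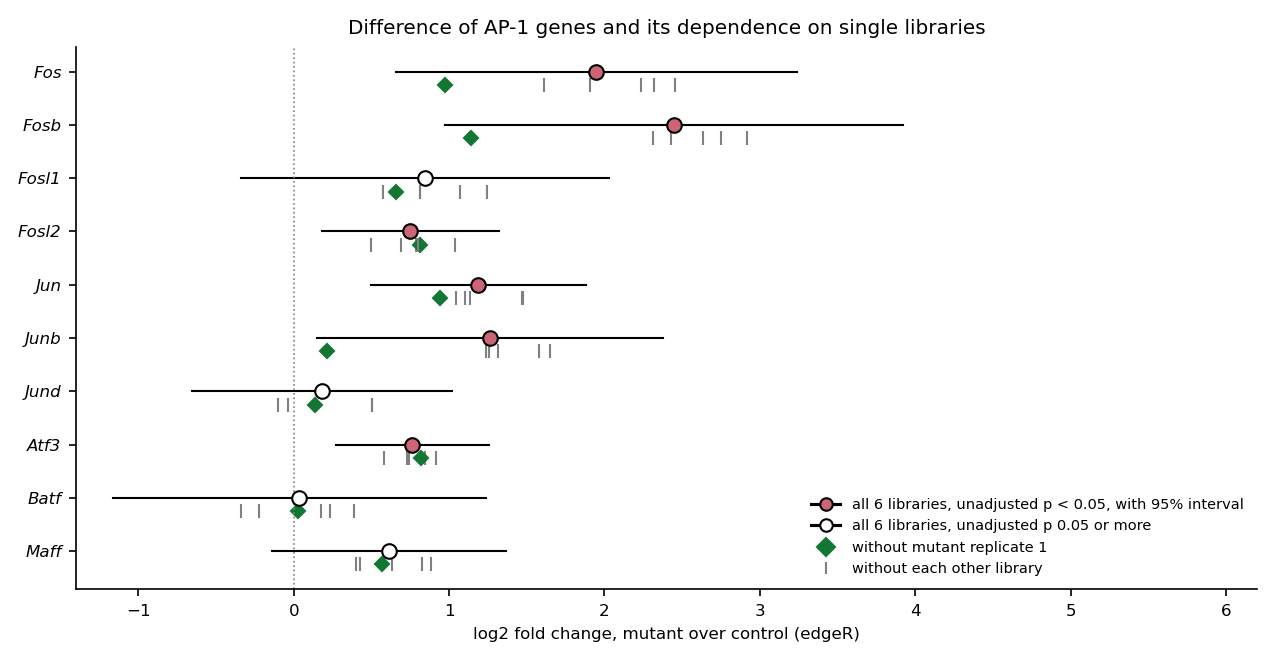
Log2 fold change of each AP-1 gene, mutant over control (edgeR), with circles for all 6 libraries and their 95% interval, filled where the unadjusted p was under 0.05; diamonds leave out mutant replicate 1 and ticks each other library. Fos, Fosb and Junb move furthest to the left without mutant replicate 1 (0.97, 1.14 and 0.21), whereas without it Atf3 (0.82) and Fosl2 (0.81) stay near their full value.

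The members thus did not share one pattern over the mutant pools. The highest library was mutant 1 for Fos, Fosb, Fosl1, Jun and Junb, mutant 2 for Atf3 and Batf, and mutant 3 for Fosl2, Jund and Maff. Fos, Fosb, Fosl2, Jun and Atf3 had an unadjusted p under 0.05 in each of the 6 fits that left out 1 library. Without mutant 1, 5 of 10 members passed, as did 4.76% of all genes. Mutant 1 also had the most reads that did not align (18.9%, against 12.0 to 15.2% in the other libraries) and the highest sum over the 11 neutrophil markers (166 CPM, against 16.8 to 63.3 CPM in controls and at least 35.6 CPM in the other mutants). Of these markers Mpo (2.25, 4.55 and 5.47 CPM in controls; 30.5, 11.8 and 12.7 CPM in mutants) and Prtn3, both granule proteins of neutrophil precursors, passed the unadjusted threshold and were higher in mutants (adjusted p = 0.534 and adjusted p = 0.676). Thus 2 of the 10 neutrophil markers tested were higher, against 2.89% of all genes, and 0 were lower. The neutrophil count of 2 was 1 without mutant 1 and 5 without control 3 or mutant 3. The part of these values in the results for Fos, Fosb and Junb was not tested.

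Levels between genes were compared as CPM per kb of exon. Jund was by far the most abundant member in controls, at 600.2 CPM per kb ± 233 (SD, n = 3), followed by Jun at 28.4 ± 8.20, Junb at 15.6 ± 0.867, Fos at 12.9 ± 7.11 and Atf3 at 5.96 ± 0.433. Maff (2.91), Fosl2 (2.58), Batf (2.43) and Fosb (1.88) followed with control ranges that overlapped from each to the next, and Fosl1 (0.976) was last. The ranges of Junb and Fos overlapped, as did those of Fos and Atf3, whereas Jund and Jun, Jun and Junb, Atf3 and Maff, and Fosb and Fosl1 did not overlap. By mutant means Fos was 3rd and Fosb 5th in place of 4th and 9th. The place of Fosb rests on mutant 1: over mutants 2 and 3 its mean was 4.04 CPM per kb, the 8th of 10, whereas Fos remained 3rd at 24.8 CPM per kb.

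**Figure D3:**
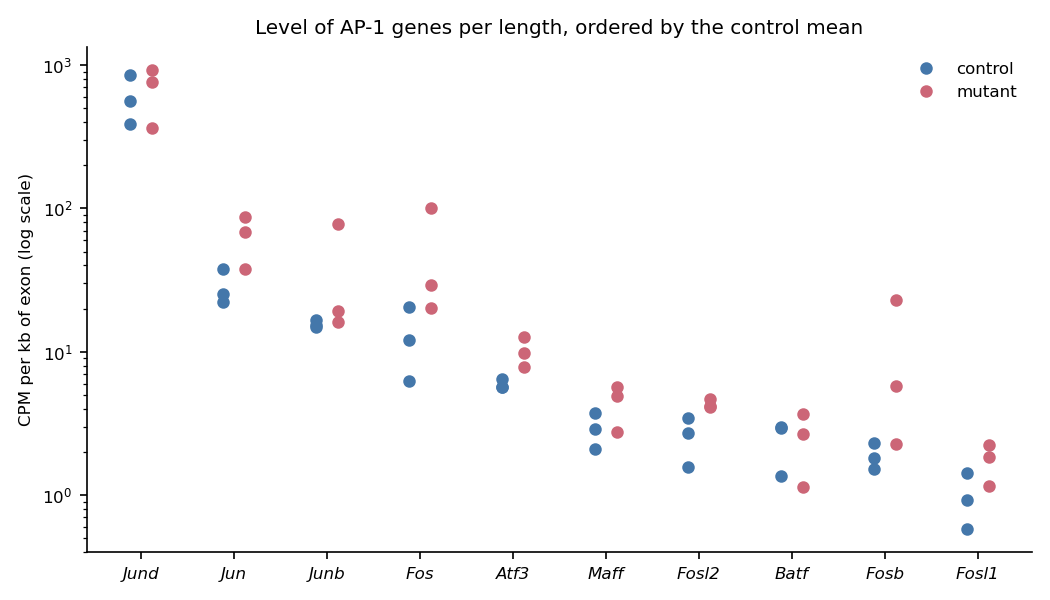
Level of each AP-1 gene in CPM per kb of exon on a log axis, 1 point per library, genes ordered by the control mean. Jund lies above every other member in all 6 libraries, and the widest spread among mutants on this axis is that of Fosb, from 2.26 to 22.9 CPM per kb.

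Summed over the 10 genes, Jund held 81.0, 93.0 and 89.6% of the AP-1 RNA per length in controls and 70.9, 76.0 and 87.5% in mutants. Fos and Fosb together held 4.75, 0.855 and 2.21% in controls and 11.5, 7.39 and 2.14% in mutants. Mutants 1 and 2 had thus a larger Fos and Fosb share than any control, whereas mutant 3 did not. These shares also move with Jund, the member with the largest spread per length. Over all 10 genes the sums were 478, 913 and 630 CPM per kb in controls and 1070, 475 and 1054 in mutants. The groups overlapped in that sum, and mutant 2 was the lowest library. Without Jund the other 9 genes summed to 91.0, 64.3 and 65.8 CPM per kb in controls and to 312, 114 and 131 CPM per kb in mutants, so every mutant pool was above every control. Jun and Junb were the largest share of that sum in each library (47.2 to 67.1%).

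**Figure D4:**
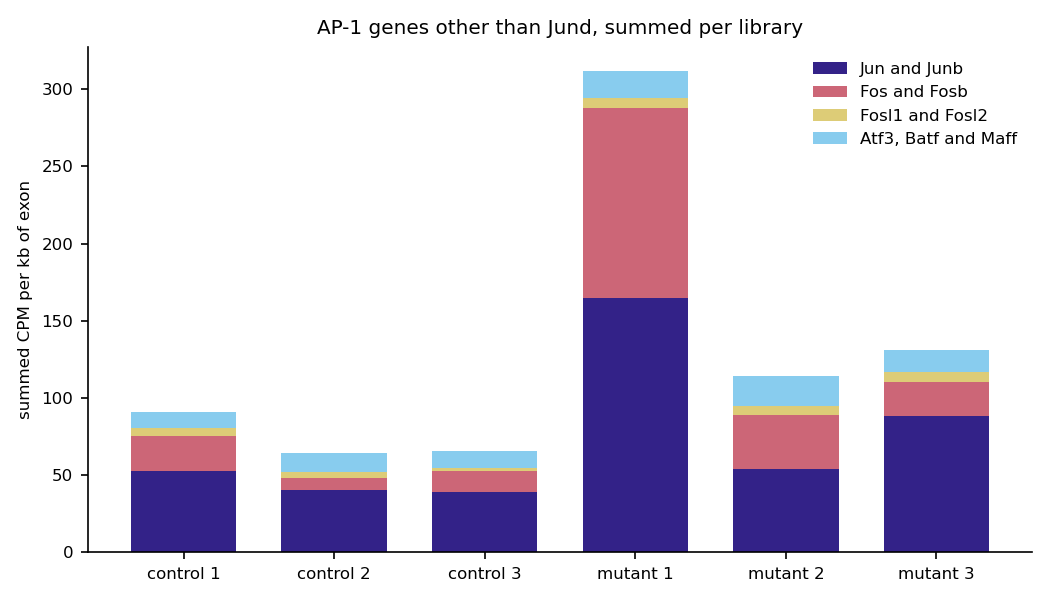
CPM per kb of exon summed over the 9 AP-1 genes other than Jund, 1 bar per library on a linear axis from 0, divided by subfamily. The 3 mutant bars (312, 114 and 131) are above the 3 control bars (91.0, 64.3 and 65.8), and mutant 1 has the largest Fos and Fosb segment.

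Other immediate early genes respond to many of the same stimuli as Fos. Of 35 tested, 13 had an unadjusted p under 0.05 and were higher, against 2.89% of all genes, and none was lower. Egr1, a zinc-finger factor induced alongside Fos, was at 45.1, 13.1 and 18.8 CPM in controls and at 201, 43.8 and 51.1 CPM in mutants (log2 fold change 1.94, SE 0.60). Like Fos it was highest in mutant 1, and its mutant 2 lay just under control 1. Zfp36, which encodes an mRNA-decay protein that shortens inflammatory transcripts, was at 26.4, 8.88 and 8.44 CPM in controls and at 77.6, 26.0 and 37.7 CPM in mutants (log2 fold change 1.69, SE 0.49). Socs3, the feedback inhibitor of STAT3 signalling (log2 fold change 1.11, SE 0.25), and Btg2, an antiproliferative gene (0.87, SE 0.25), had no overlap between the groups. Per1, a clock gene (1.003, SE 0.36), and Dusp1, a phosphatase that switches off MAP kinases (0.54, SE 0.20), were also higher, whereas the most abundant of the list, Ctgf (0.51, SE 0.33) and Cyr61 (0.67, SE 0.30), did not pass. The adjusted p of the 6 named genes that passed was 0.553 to 0.676. The count of 13 fell to 5 without mutant 1 and to 6 without control 2, control 3 or mutant 3, and was 6 with total counts as the only scaling. In 12 heat shock genes tested, 4 were higher and 0 lower, among them Hspa1b (20.0, 3.66 and 5.78 CPM in controls; 22.0, 23.3 and 26.9 CPM in mutants) and the constitutive chaperone gene Hspa8. The count of 4 was 7 without control 1, 2 without mutant 1, and 0 without control 2, control 3 or mutant 3. Of all genes, 14.1% passed in either direction without control 1 and 4.76% without mutant 1. The part of these genes in the results for the AP-1 members was not tested.

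Among 25 tested genes known as AP-1 targets, 7 were higher (28.0%, against 2.89% of all genes) and none lower. Mmp3, a metalloproteinase that degrades proteoglycan, was at 5.24, 9.55 and 5.16 CPM in controls and at 19.8, 13.5 and 13.1 CPM in mutants (log2 fold change 1.22, SE 0.32, adjusted p = 0.627). Every mutant lay above every control. The Mmp3 start region is printed because it holds the classical element, shown in capitals at −46.
Mmp3 (chr9:7445672-7445871, plus strand): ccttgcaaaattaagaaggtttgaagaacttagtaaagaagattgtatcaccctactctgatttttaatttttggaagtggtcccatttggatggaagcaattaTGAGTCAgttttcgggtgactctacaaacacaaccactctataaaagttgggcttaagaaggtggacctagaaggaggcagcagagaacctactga

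The hyaluronan receptor gene Cd44 (log2 fold change 0.56, SE 0.19), Hbegf, an EGF receptor ligand (0.66, SE 0.27), and Vegfa, an angiogenic factor (0.59, SE 0.24), were also higher, as was Dusp1, which stands on both lists. The most abundant targets were Vim (log2 fold change 0.40, SE 0.32) and Spp1 (0.28, SE 0.20), and neither passed. The count of 7 was 2 without control 2, and 4 without control 3, without mutant 3 or with total counts as the only scaling.

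Of 29 other bZIP factors tested, 3 were higher and 2 lower (17.2%, against 7.21% of all genes in either direction). Bach2, a repressor that competes for Maf partners, was at 18.5, 14.3 and 30.4 CPM in controls and at 8.19, 12.4 and 6.91 CPM in mutants (log2 fold change −1.20, SE 0.32, adjusted p = 0.629). Batf3, a close relative of Batf, was at 9.20, 6.11 and 6.18 CPM in controls and at 3.07, 3.84 and 1.81 CPM in mutants (−1.29, SE 0.41, adjusted p = 0.676). In both genes every mutant lay below every control, the opposite of Jun and Atf3. Creb3l1, a secretory-pathway factor of bone and cartilage (0.83, SE 0.22), Cebpd, an inflammatory C/EBP factor (0.77, SE 0.21), and Atf5 (0.47, SE 0.18) were higher without overlap, and the most abundant, Nfe2l1 (0.082) and Creb3l2 (0.053), were near 0. The count of 5 rose to 9 without mutant 2, where 9.76% of all genes passed in either direction.

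The kinases and serum response factors that act upstream of Fos transcription differed in 1 of 35 tested genes (2.86%, below the 7.21% of all genes). Rps6ka3, which encodes the kinase RSK2, was at 32.4, 28.2 and 38.0 CPM in controls and at 20.5, 26.5 and 24.3 CPM in mutants (log2 fold change −0.47, SE 0.18, adjusted p = 0.676). Map2k2 and Mapk3, the most abundant of the list, had log2 fold changes of −0.034 and 0.11. RNA levels carry no measure of kinase activity. This count was 0 without control 3 or mutant 3, 3 without mutant 2 and 5 without control 1. Of all genes, 3.77, 5.10, 9.76 and 14.1% passed in these fits, in the same order.

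**Figure D5:**
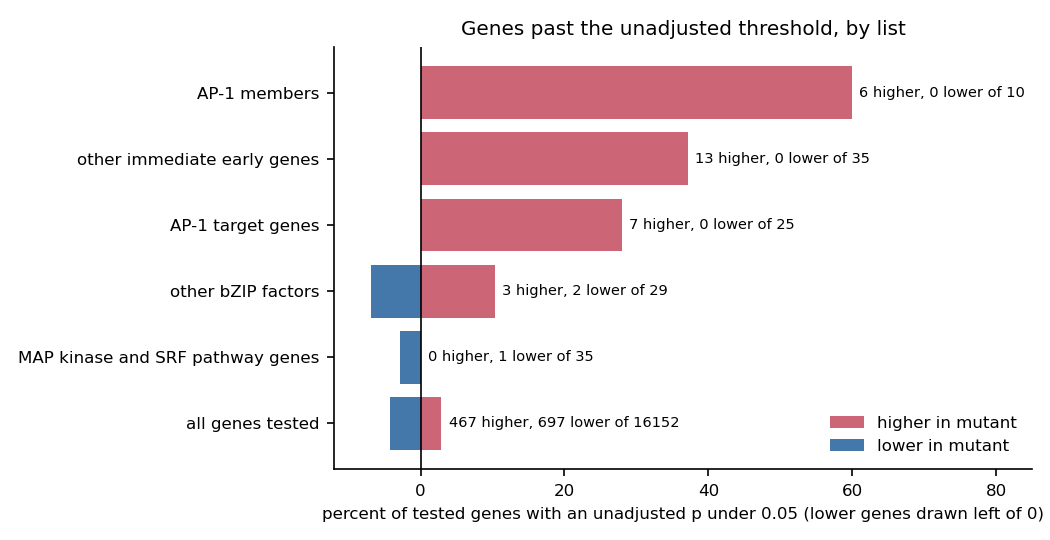
Percent of the tested genes of each list with an unadjusted p under 0.05 in edgeR, higher genes to the right of 0 and lower genes to the left, with the counts beside each bar. AP-1 members (6 of 10), other immediate early genes (13 of 35) and AP-1 targets (7 of 25) have only higher genes, whereas all 16152 genes have 467 higher and 697 lower.

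The genes whose log2 CPM followed a member most closely were sought among 12224 genes with a mean of at least 5 CPM, by Pearson's r over the 6 libraries. For Fos these were Rad23b (0.988), Mtpn (0.986), Scly (0.980), mt-Rnr2 (0.979) and Stx7 (0.979). Their own differences were small: Rad23b had a log2 fold change of 0.40 and Mtpn of 0.31. Without mutant 1 and control 2, the libraries farthest from the median of Fos, r over 4 libraries was 0.857 to 0.998. For Jun the closest were Cntnap1 (0.999), Mknk1 (0.999), Add1 (0.997), Pip5k1a (0.994) and Ubfd1 (0.993). These values are the highest of many over few libraries that share depth and scaling, and are given as a description.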

How the data were processed

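RNA of 6 pools of P20 mouse discs (3 mutant, 3 control) was sequenced from poly(A) libraries. The authors deposited raw read counts per gene symbol, 1 table per library; the labels' processing notes name STAR 2.5.3a, HTSeq, DESeq2 and mm10/GRCm38, whereas the methods name HISAT2, and the strand setting is not given in the sources used here. Reads on no gene (55.8 to 59.6%) were left out. A deposited table of the authors' own comparison was not used.

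Counts were tested in edgeR 4.0.16 (R 4.3.3) by the quasi-likelihood test with TMM factors, filterByExpr (minimum count 10) and genotype as the only term, with Benjamini-Hochberg adjustment over all 16152 genes. CPM values are TMM-scaled. Thresholds were an unadjusted and an adjusted p of 0.05. The procedure was tested on simulated data, and the outcome is not given here. Alternatives were RLE factors, total counts only, no filter, a replicate block, DESeq2 1.42.0, limma 3.58.1 voom with quality weights and leaving out each library. Adding antisense counts and a fold cut were chosen after seeing the data.

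The 18 gene lists, the members among them, were chosen with earlier results of these data known. All members were named. From each other list of genes, those with an unadjusted p under 0.05 (at most 6, by p) and the 2 most abundant could be named. Markers of a cell type or tissue, those of cartilage, growth plate and bone included, could be named at any p where their list is given. For Fos and Jun the 5 genes most correlated could be named. A gene that the rule names is not reported here.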

Additional observations from a re-analysis of the deposited data

How the results depend on the processing

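Of the 10 members, Fos, Fosl1, Fosl2, Jun and Atf3 kept their direction and their side of the unadjusted threshold under every alternative run. Fosb missed it with limma-voom (log2 fold change 1.61, adjusted p = 0.553). Junb missed it with the replicate block (0.86), DESeq2 (1.27) and limma-voom (0.83); for each the cause was not tested. The sign of Jund reversed only when a library was left out (range −0.10 to 0.50). That of Batf reversed with total counts only (−0.091), the replicate block (−0.019), limma-voom (−0.40) and when a library was left out (−0.34 to 0.39). Maff passed without mutant 2 (0.88). Members with an unadjusted p under 0.05 numbered 4 to 7 over all alternatives; those with an adjusted p under 0.05 numbered 4 without the filter (Fos, Fosb, Jun and Junb), where 245 of 26418 genes passed, 1 with DESeq2, where 58 passed, and 0 otherwise.

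With 1 library left out, counts at an unadjusted p under 0.05 ranged from 618 (without control 3) to 2427 (without control 1) over all genes, from 5 to 7 over the members, from 5 to 17 over immediate early genes, from 2 to 9 over AP-1 targets, from 4 to 9 over other bZIP factors, and from 0 to 5 over MAP kinase and SRF genes. Of all genes, 14.1, 5.59 and 3.77% passed without controls 1, 2 and 3, and 4.76, 9.76 and 5.10% without mutants 1, 2 and 3. Total counts only gave 6, 4 and 2 for immediate early genes, targets and MAP kinase genes; limma-voom gave 2 and the replicate block 0 for the latter. Scaling by total counts moved the median log2 fold change of all genes to −0.13. With RLE factors the mutants of Fos lay above all controls too. Deviations of same-numbered libraries correlated at 0.159, −0.132 and 0.102, and those of differently numbered libraries at −0.265 to 0.179. With 3 libraries per group these values cannot decide whether the numbers mark pairs. With the replicate block 5 members (Fos log2 fold change 1.76) and 1002 genes had an unadjusted p under 0.05. At 9061491 to 12017008 reads per library, Fosl1 had 167 reads over the 6 libraries and Fosl1 and Batf were under 6 CPM everywhere. Depth was not the only limit on precision, since the 95% intervals of the more abundant Fos (0.66 to 3.24), Fosb (0.97 to 3.92) and Junb (0.15 to 2.38) were also over 2 log2 units wide.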

Other observations

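Of 8 genes of hypertrophic growth plate chondrocytes, 5 were lower at an unadjusted p under 0.05 and none was higher, against 4.32% of all genes lower and 7.21% in either direction, with a median log2 fold change of −0.68. Ihh, the hedgehog ligand of prehypertrophic cells, was at 188, 189 and 112 CPM in controls and at 63.3, 47.7 and 63.6 CPM in mutants (log2 fold change −1.49, SE 0.24, adjusted p = 0.287 in edgeR). Panx3, a channel gene of the same zone (−1.25, SE 0.24), and Pth1r, the receptor for parathyroid hormone-related protein (−0.71, SE 0.24), were lower without overlap, as was Runx2, a transcription factor that can act with AP-1 at the Mmp13 promoter (−0.55, SE 0.21). Mmp13 itself, a collagenase known as an AP-1 target, was at 45.7, 31.2 and 31.1 CPM in controls and at 31.8, 39.3 and 12.9 CPM in mutants. Of 17 cartilage and annulus genes tested, 1 was higher (Tnmd, a tendon and outer annulus gene, log2 fold change 0.96) and 4 were lower (Matn3, Col9a3, Ucma and Col9a2, −0.78 to −0.57), and the other 12 did not pass, among them Col2a1 (0.27) and Acan (−0.29). The count of 5 hypertrophic genes was 2 without control 1 and 3 without mutant 3; the 4 lower cartilage genes were 2 without control 1 or control 2 and 0 without mutant 2 or mutant 3. In edgeR 0 of 8 nucleus pulposus genes tested passed, and 1 did without control 3 or mutant 2.

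For the counts that follow, 2.89% of all genes were higher and 4.32% were lower at this threshold. Without control 1, where several of these counts rise, 14.1% of all genes passed in either direction. Of 9 osteoblast genes, 3 were higher (Bglap, Bglap2 and Col1a1) and 1 lower (Phex, log2 fold change −0.81). Without control 3, mutant 2 or mutant 3, 2 were higher and 0 lower. Sp7 (−0.41) and Alpl (−0.25), markers of the osteoblast lineage, did not pass. Bglap, which encodes osteocalcin and has a known AP-1 element, was at 6.53, 5.33 and 5.63 CPM in controls and at 17.98, 25.5 and 10.9 CPM in mutants (log2 fold change 1.64, SE 0.32, adjusted p = 0.476). Bglap and Bglap2 are near-identical copies, so reads may have been split between them. Of 8 macrophage and osteoclast genes tested 1 was higher (Cd68, 0.74; none without control 2, control 3 or mutant 1, 1 higher and 1 lower without control 1 or mutant 3, and 1 higher and 2 lower without mutant 2), and of 8 red blood cell precursor genes 1 was higher (Slc4a1, 2.68), or 6 without control 1 and 2 without mutant 3. Of 9 neuron and glia genes tested 3 were higher (5 without control 2 or mutant 3, 2 without mutant 1). Of 10 skeletal muscle genes 9 were lower, a count that rests on control 1, in which Myh1 was at 958 CPM against 2.00 and 3.91 CPM in the other controls and 2.05 to 18.7 CPM in mutants. The groups overlapped for each of these 10 genes, and 0 were lower and 3 higher without control 1, 2 lower without mutant 1 or mutant 3 and 4 lower without mutant 2. With all libraries 0 of 10 endothelial, 0 of 6 adipocyte and 0 of 3 lymphocyte genes tested passed the unadjusted threshold in edgeR. Without control 1, 6 endothelial and 1 adipocyte genes were higher. Among endothelial genes 1 was higher without mutant 1, and 1 was lower without mutant 3.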
